A study of Macaca mulatta with 9 samples.

Results

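The immunoglobulin heavy and light chain genes measured here were 8 probes of the nCounter Human Organ Transplant Panel, namely IGHA1, IGHG1, IGHG2, IGHG3, IGHG4, IGHM, IGKC and IGLC1. They were taken by name from a table of 767 probes, and all 8 were found. Total RNA was taken from fixed, paraffin-embedded biopsies, all labelled male, of kidneys from pigs of 2 donor lines grafted into rhesus macaques, in 9 libraries and 3 groups of 3. The group of donor line 1KO.1TG is labelled early R and is called the 1KO.1TG grafts here. Donor line 3KO.7TG has a group labelled early bx, called early 3KO.7TG, and a group labelled late R, called late 3KO.7TG. The labels give neither the altered genes of either line nor the meaning of R and bx, nor any age, treatment or day. The extraction protocol in the labels speaks of an allograft, whereas the series text speaks of xenografts.

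An antibody is built from heavy chains and light chains. IGHM encodes the constant part of the heavy chain of IgM, the class that a B cell makes first, while the IGHG genes encode those of the IgG subclasses and IGHA1 that of an IgA, to which B cells can switch. IGKC and IGLC1 encode the constant parts of the kappa and a lambda light chain. Plasma cells, the secreting end stage of the B lineage, carry these transcripts at very high levels, and antibody against the donor is a known cause of graft injury. The panel is made for human transcripts, and the IgG constant genes are closely alike in primates. Which IgG subclass, and which species' transcript, each probe bound cannot be told apart in these data, so that IGHG1 to IGHG4 below name probes. No sequence is shown, because none of the probes or genes was given in the sources used here.

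Total counts were 657340 to 1620151 in 8 libraries and 21725 in replicate 3 of the 1KO.1TG grafts, which is called the low-yield library here. The 4 probes for viral genes, used as a measure of background, gave 1 to 17 counts over all libraries. In the low-yield library 69.8% of all probes lay at or below its highest viral probe. Levels are therefore given with and without that library. The labels do not state that replicates were separate animals. The p-values then reflect the spread among these libraries alone, part of which may be technical. In a bulk biopsy, more cells of the B lineage and more immunoglobulin RNA per cell cannot be told apart.

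Immunoglobulin transcripts took a share of all counts that differed 21.3-fold between libraries. In the 1KO.1TG grafts the 8 probes together took 3.14%, 17.2% and 1.03% of all counts in replicates 1 to 3. In early 3KO.7TG they took 0.988%, 2.94% and 4.91%, and in late 3KO.7TG 0.808%, 1.58% and 11.7%. Each group thus held a library near 1%, which in the 1KO.1TG grafts was the low-yield one, and at least 1 other library several times higher. The groups overlapped, also without the low-yield library. The Wilson 95% interval was 17.1% to 17.3% for the highest share, 0.788% to 0.828% for the lowest and 0.901% to 1.17% in the low-yield library. These intervals cover counting error only.

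**Figure D1:**
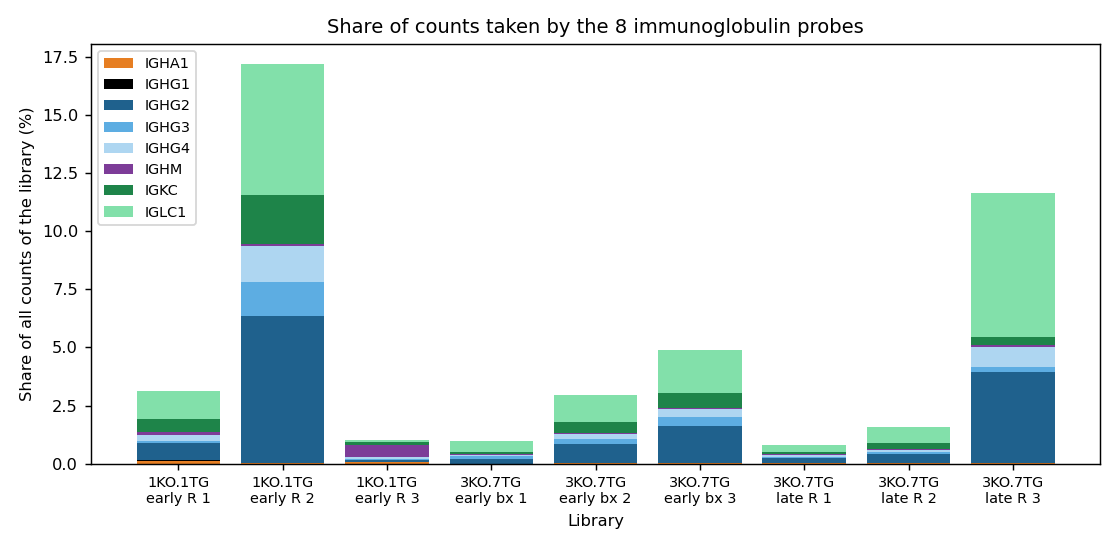
Stacked bars give the share of all counts (percent, vertical axis) that each of the 8 immunoglobulin probes took in each of the 9 libraries (horizontal axis). The tallest bars are replicate 2 of the 1KO.1TG grafts at 17.2% and replicate 3 of late 3KO.7TG at 11.7%, and the other 7 libraries lie between 0.808% and 4.91%.

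The mean log2 share was 1.93 ± 2.05 (SD, n = 3) in the 1KO.1TG grafts, 1.28 ± 1.18 in early 3KO.7TG and 1.30 ± 2.00 in late 3KO.7TG. The differences between groups, 0.65, 0.020 and 0.63 on the log2 scale, were smaller than the spread within them. Exact two-sided permutation tests gave p = 0.6 for 1KO.1TG grafts against early 3KO.7TG, p = 1 for late against early 3KO.7TG, and p = 0.7 for the 1KO.1TG grafts against late 3KO.7TG. With 3 against 3 libraries such a test cannot go below 0.1. Over the 12 exact tests made (this share and 3 ratios given below, in 3 comparisons), the adjusted p was at least 0.84. The difference between the early groups turned from 0.65 to −0.43 without replicate 2 of the 1KO.1TG grafts. Without the low-yield library it was 1.60 (exact two-sided permutation p = 0.4).

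Of the IgG probes, IGHG2, IGHG3 and IGHG4 were far above background and ranged widely between libraries. IGHG2 gave 7908, 93664 and 15 counts in the 1KO.1TG grafts, 1552, 5233 and 19169 in early 3KO.7TG, and 1739, 6817 and 62797 in late 3KO.7TG. In replicate 2 of the 1KO.1TG grafts it was the probe with the most counts of all 767, whereas in the low-yield library the highest viral probe gave 13 counts beside its 15. On the CPM scale, which divides each count by the effective library size, the highest of the 8 ordinary libraries exceeded the lowest 39.8-fold.

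IGHG4 followed IGHG2, with 2948, 23219 and 15 counts in the 1KO.1TG grafts, 432, 1343 and 4468 in early 3KO.7TG, and 566, 1606 and 13158 in late 3KO.7TG. The count of IGHG4 relative to that of IGHG2 stayed within 0.210 to 0.373 in the 8 ordinary libraries, and the log2 CPM of both probes correlated at r = 0.99 over these 8. Both the high and the low libraries were therefore shared by these probes. Closely alike genes may share signal, so the split between these probes is uncertain.

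IGHG3 varied more independently. It gave 726, 21107 and 13 counts in the 1KO.1TG grafts, 1058, 1522 and 4286 in early 3KO.7TG, and 433, 1028 and 3606 in late 3KO.7TG. Relative to IGHG2 its count ranged from 0.057 in replicate 3 of late 3KO.7TG to 0.682 in replicate 1 of early 3KO.7TG, an 11.9-fold span. All 3 libraries of early 3KO.7TG had ratios of 0.224 or more, and in the other groups 0.249, 0.225 and, in the low-yield library at background, 0.867 lay as high. This ratio was singled out after its values were seen and is given without a test.

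IGHG1 stayed at background. It gave 7, 22 and 2 counts in the 1KO.1TG grafts, 9, 7 and 18 in early 3KO.7TG, and 10, 10 and 26 in late 3KO.7TG. It exceeded the highest viral probe in 3 of 9 libraries, namely replicate 2 of the 1KO.1TG grafts and replicate 3 of both 3KO.7TG groups. Those are the libraries with the highest IGHG2 counts in their groups. Because probes differ in how they bind, this count does not place the IgG1 transcript below that of the other subclasses. Its fitted value enters the counts and medians over the 8 probes below, but compares levels near background.

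**Figure D2:**
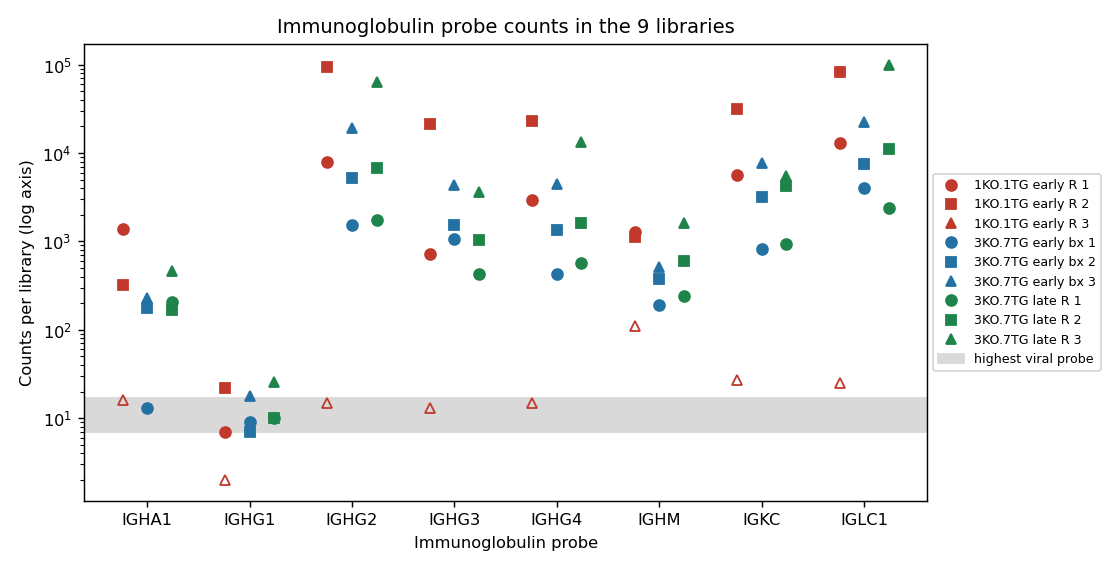
Points give the count (log axis) of each immunoglobulin probe in each library, coloured by group and shaped by replicate, with the low-yield library open; the grey band spans the highest viral probe of the 9 libraries, 7 to 17 counts. IGHG1 lies in or near the band, IGHG2 and IGLC1 reach 93664 and 99465 counts, and IGHM covers the narrowest range of the probes above the band.

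IGHM, the IgM heavy chain, was much more even. It gave 1261, 1114 and 110 counts in the 1KO.1TG grafts, 193, 371 and 515 in early 3KO.7TG, and 243, 594 and 1634 in late 3KO.7TG. Over the 8 ordinary libraries its highest CPM exceeded the lowest 4.59-fold, against 22.6-fold to 39.8-fold for IGHG2, IGHG3, IGHG4, IGKC and IGLC1. The 2 ordinary libraries of the 1KO.1TG grafts and replicate 3 of late 3KO.7TG were the high ones.

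The low-yield library stood apart in IGHM. Its 110 counts were 0.506% of all its counts (Wilson 95% interval 0.420% to 0.610%), against 0.023% to 0.121% in the other 8 libraries. There IGHM ranked 21 among 767 probes, while none of the other immunoglobulin probes exceeded 27 counts. IGHM made up 64.3% of the summed IGHM, IGHA1 and IGHG counts of that library (Wilson 95% interval 56.9% to 71.1%), against 0.799% to 8.85% elsewhere.

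IGHA1, an IgA heavy chain, gave 1394, 322 and 16 counts in the 1KO.1TG grafts, 13, 178 and 230 in early 3KO.7TG, and 204, 167 and 458 in late 3KO.7TG. Its span over the 8 ordinary libraries, 72.8-fold in CPM, rested on replicate 1 of early 3KO.7TG, where its 13 counts equalled the highest viral probe. Replicate 1 of the 1KO.1TG grafts was the library richest in IGHA1, which there made up 9.79% of heavy chain counts. In replicate 2 of the same group, with 138012 summed IgG counts against 11589, it made up 0.231%.

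The balance of IgG to IgM differed widely between libraries. Summed IGHG counts over IGHM counts were 9.19, 123.9 and 0.409 in the 1KO.1TG grafts, 15.8, 21.8 and 54.3 in early 3KO.7TG, and 11.3, 15.9 and 48.7 in late 3KO.7TG. The highest ratio of each group fell in its library with the largest immunoglobulin share, a share that itself contains the IgG counts. The log2 of IGHM over IGHG was −2.95 ± 4.13 (SD, n = 3), −4.73 ± 0.92 and −4.37 ± 1.10 in the same order of groups. Exact two-sided permutation p-values were 0.6, 0.6 and 0.7 for the comparisons as ordered above.

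For IGHA1 over IGHG the log2 ratio was −4.43 ± 3.82 (SD, n = 3) in the 1KO.1TG grafts, −6.77 ± 1.19 in early 3KO.7TG and −5.67 ± 1.85 in late 3KO.7TG (exact two-sided permutation p = 0.4, 0.5 and 0.7). Both differences between the early groups moved with the low-yield library. For IGHM over IGHG the log2 difference was 1.78 with it and −0.35 without it. For IGHA1 over IGHG it was 2.34 with it and 0.87 without it.

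The ratio of the light chains, IGLC1 over IGKC, lay between 2.31 and 2.91 in most ordinary libraries. It was higher in replicate 1 of early 3KO.7TG and replicate 3 of late 3KO.7TG. IGKC gave 5599, 31444 and 27 counts in the 1KO.1TG grafts, 823, 3168 and 7642 in early 3KO.7TG, and 924, 4278 and 5517 in late 3KO.7TG. IGLC1 gave 12916, 82987 and 25 counts, then 4067, 7526 and 22224, then 2369, 11115 and 99465 in the same order. IGLC1 over IGKC was 2.31 and 2.64 in the ordinary libraries of the 1KO.1TG grafts, 4.94, 2.38 and 2.91 in early 3KO.7TG, and 2.56 and 2.60 in replicates 1 and 2 of late 3KO.7TG.

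In replicate 3 of late 3KO.7TG the ratio was 18.0. IGLC1 ranked 2 among the 767 probes there, and its level relative to IGHG2 (1.58) lay within the range of the other ordinary libraries (0.886 to 2.62). The count of IGKC in it was instead no higher than in replicate 1 of the 1KO.1TG grafts, although the immunoglobulin share was 11.7% against 3.14%. The log2 ratio of kappa to lambda was −0.83 ± 0.82 (SD, n = 3), −1.70 ± 0.55 and −2.30 ± 1.62 in the 3 groups in the order above (exact two-sided permutation p = 0.2, 0.8 and 0.3). Without the low-yield library, where IGKC and IGLC1 gave 27 and 25 counts, the 1KO.1TG mean was −1.30 ± 0.14 (SD, n = 2) and its difference from early 3KO.7TG went from 0.87 to 0.39. The difference between late and early 3KO.7TG turned from −0.60 to 0.33 without that replicate.

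**Figure D3:**
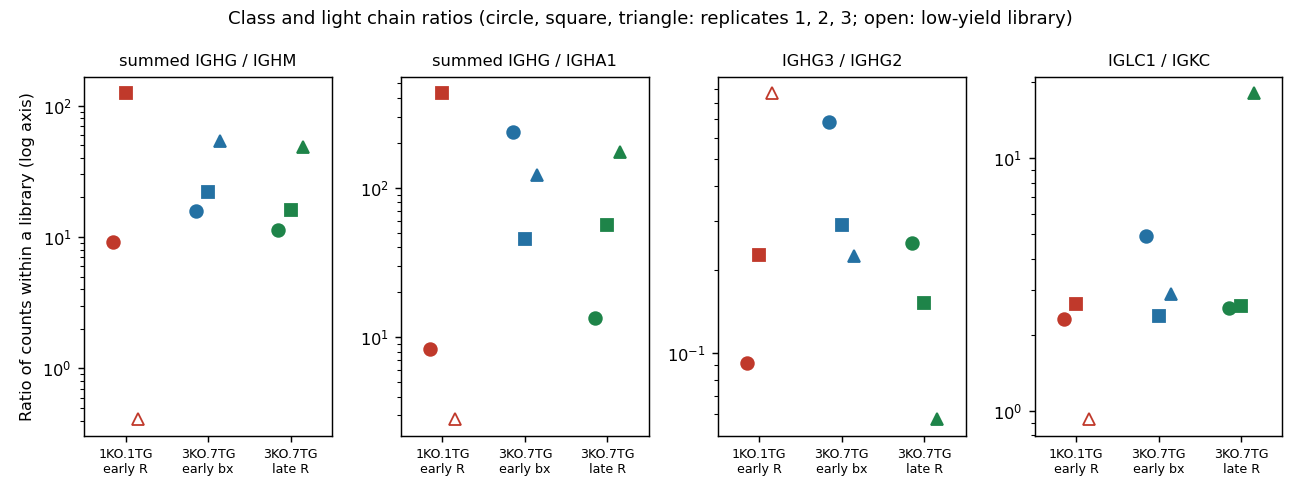
Each panel gives a ratio of counts within a library (log axis) for the 3 groups: summed IGHG over IGHM, summed IGHG over IGHA1, IGHG3 over IGHG2, and IGLC1 over IGKC. The groups overlap in every panel, the low-yield library (open triangle) lies at an end of each, and the highest point of the last panel is replicate 3 of late 3KO.7TG at 18.0.

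The first comparison of levels asked how grafts of both donor lines differed early (1KO.1TG grafts against early 3KO.7TG), where R against bx cannot be told apart from donor line. None of the 8 immunoglobulin probes was called by limma at an adjusted p of 0.05, against 0.391% of all 767 probes, and 3 had a fitted value above 0 (46.5% of all probes). IGHM and IGHA1 were the 2 with an unadjusted p under 0.05 in limma, as 13.2% of all probes had. IGHM had log2 CPM of 10.24, 9.96 and 10.87 in the 1KO.1TG grafts and 8.15, 9.27 and 8.84 in early 3KO.7TG. These groups did not overlap, as held for 1 of 8 immunoglobulin probes and for 13.8% of all probes, so the share among the 8 was near the background.

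The log2 fold change of IGHM was 1.68 ± 0.57 (SE, limma adjusted p = 0.245), with a 95% interval of 0.45 to 2.91. Without the low-yield library it was 1.42 ± 0.59 (limma adjusted p = 0.207), with an interval of 0.10 to 2.73. IGHA1 had log2 CPM of 10.39, 8.17 and 8.13 in the 1KO.1TG grafts against 4.31, 8.21 and 7.68 in early 3KO.7TG, and its fitted log2 fold change was 2.26 ± 0.99 (SE, limma adjusted p = 0.350). The 8.13 was 16 counts in the low-yield library, near the 13 of its highest viral probe. Without that library the fold change was 2.59 ± 1.08 (limma adjusted p = 0.207). Over all libraries the groups of IGHA1 overlapped through replicate 2 of early 3KO.7TG. The 4.31 of replicate 1 of early 3KO.7TG was at background, and without that library the value was 1.18.

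The fitted values of IGHG2, IGHG3, IGHG4 and both light chain probes lay below 0 over all libraries and above 0 without the low-yield library. IGHG2 had log2 CPM of 12.89, 16.35 and 8.04 in the 1KO.1TG grafts against 11.15, 13.08 and 14.06 in early 3KO.7TG. Its fitted log2 fold change was −1.15 ± 1.77 (limma adjusted p = 0.891) over all libraries and 1.91 ± 1.37 (limma adjusted p = 0.481) without the low-yield library. IGHG4 went from −0.32 to 2.18, IGKC from −0.48 to 1.87 and IGLC1 from −1.21 to 1.48, none of them called. The median log2 fold change of the 8 probes went from −0.40 to 1.67, while that of all probes was −0.071 and −0.0020. The sign over all libraries also turned with the processing. For IGHG4 and IGKC the plain group means already lay the other way, at 11.28 against 10.80 and 12.01 against 11.78 log2 CPM. The median over all libraries was 0.30 without voom weights, 0.31 after subtraction of the viral probe mean, 0.87 with pig reference scaling and 0.92 with quantile scaling.

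Without the low-yield library 7 of 8 immunoglobulin probes had a fitted value above 0, against 49.9% of all probes. None was called (smallest limma adjusted p = 0.207; 1.83% of all probes were called), and IGHM and IGHA1 were the 2 whose groups did not overlap (33.6% of all probes). For IGHA1 this came with the recomputed scaling. As an unscaled share of all counts, replicate 2 of the 1KO.1TG grafts (0.0218%) lay below replicate 2 of early 3KO.7TG (0.0271%). The fit without the low-yield library rests on 2 libraries in the 1KO.1TG grafts, of which replicate 2 lay far above replicate 1 in IgG. Without replicate 2 instead, the median was −1.41.

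**Figure D4:**
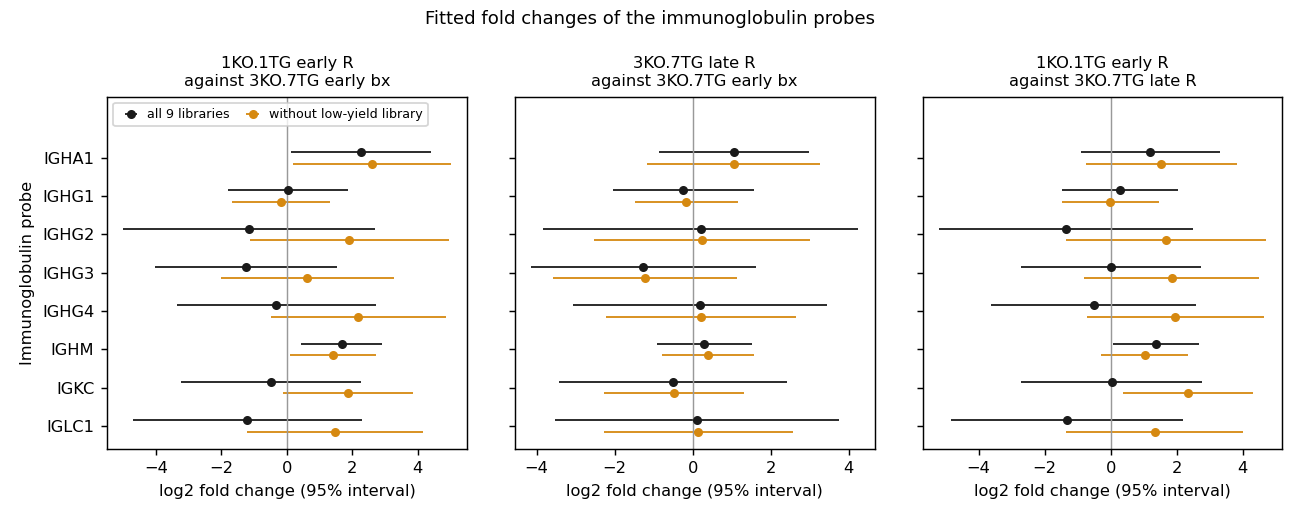
Points give the fitted log2 fold change of each probe with its 95% interval (horizontal axis) in the 3 comparisons, over all 9 libraries (black) and without the low-yield library (orange). In the comparisons with the 1KO.1TG grafts the points of IGHG2, IGHG3, IGHG4, IGKC and IGLC1 shift to the right without the low-yield library, whereas those of late against early 3KO.7TG hardly move; no probe was called in either fit.

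The second comparison asked whether grafts of the 3KO.7TG line differed between late R and early bx samples, where late against early cannot be told apart from R against bx. None of the 8 immunoglobulin probes was called, and none had an unadjusted p under 0.05 in limma (0.0% and 1.69% of all probes). No probe of the 8 had groups that did not overlap (10.2% of all probes), and 5 had a fitted value above 0 (49.2% of all probes). Leaving out the low-yield library, which is in neither group but shares the fit, called none of the 8 either (0.0% of all probes). Fitted values ranged from −1.26 ± 1.33 for IGHG3 to 1.07 ± 0.89 for IGHA1 (limma adjusted p = 0.99 for both), and the median of the 8 was 0.15 against −0.016 for all probes. For IGHG2 the value was 0.21 ± 1.86, with a 95% interval of −3.82 to 4.25. The interval is too wide to show that the groups were alike: it covers differences of several doublings either way. Within late 3KO.7TG alone, IGHG2 ran from 11.26 log2 CPM in replicate 1 to 15.54 in replicate 3, a gap wider than either bound.

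The third comparison set the 1KO.1TG grafts against late 3KO.7TG, in which donor line and early against late cannot be told apart; it shares libraries with both comparisons above. None of the 8 was called (0.391% of all probes were), and IGHM had an unadjusted p under 0.05 in limma, as 6.65% of all probes did. Its log2 fold change was 1.38 ± 0.60 (limma adjusted p = 0.727), and the groups overlapped through replicate 3 of late 3KO.7TG at 10.28 log2 CPM. IGHG2 stood at −1.36 ± 1.77 (limma adjusted p = 0.869) and at 1.67 ± 1.36 (limma adjusted p = 0.770) without the low-yield library. IGKC stood at 0.030 ± 1.27 (limma adjusted p = 0.988) and at 2.34 ± 0.89 (limma adjusted p = 0.527) without it. Above 0 were 5 of the 8 over all libraries (47.3% of all probes) and 7 of 8 without it (53.3%). None was called without it (0.522% of all probes), and IGKC was the single one whose groups did not overlap there, as held for 24.1% of all probes; with it there was none, against 11.1%.

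Compared with other probes, most immunoglobulin probes were among the most variable within groups. Over the 8 ordinary libraries the pooled within-group SD of log2 CPM was 2.04 for IGHG2, 1.78 for IGHG4, 1.78 for IGLC1, 1.74 for IGHG3, 1.63 for IGHA1 and 1.27 for IGKC, where the median of all 767 probes was 0.59. IGHG2, IGHG4 and IGLC1 ranked 6, 9 and 11 among the 767. IGHM ranked 263 with 0.75, and IGHG1, at background, ranked 284 with 0.70.

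Among the 8 probes, the log2 CPM over the 8 ordinary libraries correlated at r = 0.98 for IGHG2 with IGLC1, 0.87 for IGHG2 with IGKC, 0.83 for IGHG2 with IGHG3 and 0.76 for IGHG2 with IGHM. IGHA1 followed IGHM (r = 0.77) more closely than IGHG3 (r = 0.012). These values describe 8 points that share library scaling, and they carry no test.

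The probes outside the 8 whose levels ran most like the immunoglobulins included TNFRSF17 and IRF4, genes of antibody-secreting cells. The likeness was Pearson's r, over the 8 ordinary libraries, to the mean log2 CPM of the 6 immunoglobulin probes that exceeded the viral probes in all of them (all but IGHA1 and IGHG1). Among 620 probes with a mean of at least 20 counts the median r was 0.23, and 62.6% were above 0. The 6 highest were ADORA2A, an adenosine receptor (r = 0.93), TNFRSF17 (0.93), NOD2, an intracellular sensor of bacterial cell walls (0.92), BCL2L11, a promoter of apoptosis (0.91), FAM30A, a non-coding transcript (0.91), and IRF4 (0.90).

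TNFRSF17 encodes BCMA, the survival receptor of plasma cells. It gave 36, 112 and 14 counts in the 1KO.1TG grafts, 10, 20 and 27 in early 3KO.7TG, and 12, 19 and 63 in late 3KO.7TG. Its highest counts thus fell in the same 2 libraries as those of IGHG2, while in replicate 1 of both 3KO.7TG groups it did not exceed the highest viral probe. Without the 2 libraries highest in immunoglobulin its r was 0.75.

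IRF4, a transcription factor needed for plasma cell formation and also made by activated T cells, gave 136, 368 and 30 counts in the 1KO.1TG grafts, 78, 121 and 312 in early 3KO.7TG, and 75, 135 and 495 in late 3KO.7TG. Its r without those 2 libraries was 0.85, and after subtracting group means it was 0.96. The likeness was not particular to genes of antibody-secreting cells. Without those 2 libraries ADORA2A, NOD2 and BCL2L11 had r of 0.87, 0.86 and 0.85. After subtracting group means they had 0.91, 0.88 and 0.89. FAM30A, whose cell of origin was not examined here, had 0.83 without those 2 libraries and 0.96 after subtracting group means. Over the 10 measured plasma cell genes r ranged from 0.16 to 0.93 with a median of 0.59, and 9 of 10 lay above the median of all 620 probes. PRDM1, the regulator that drives plasma cell differentiation, had r = 0.79, and XBP1, which expands the secretory apparatus, r = 0.68. CD38, a surface enzyme of plasma cells and other leukocytes, had 0.39, and the costimulatory receptors CD28 and CD27 had 0.32 and 0.16. Over the 20 measured genes of B cell help and survival r ranged from −0.76 for CXCL12 to 0.81 for ICOS. CD40LG had 0.67, but it gave 8 to 99 counts and exceeded the highest viral probe in only 5 of the 8 ordinary libraries.

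**Figure D5:**
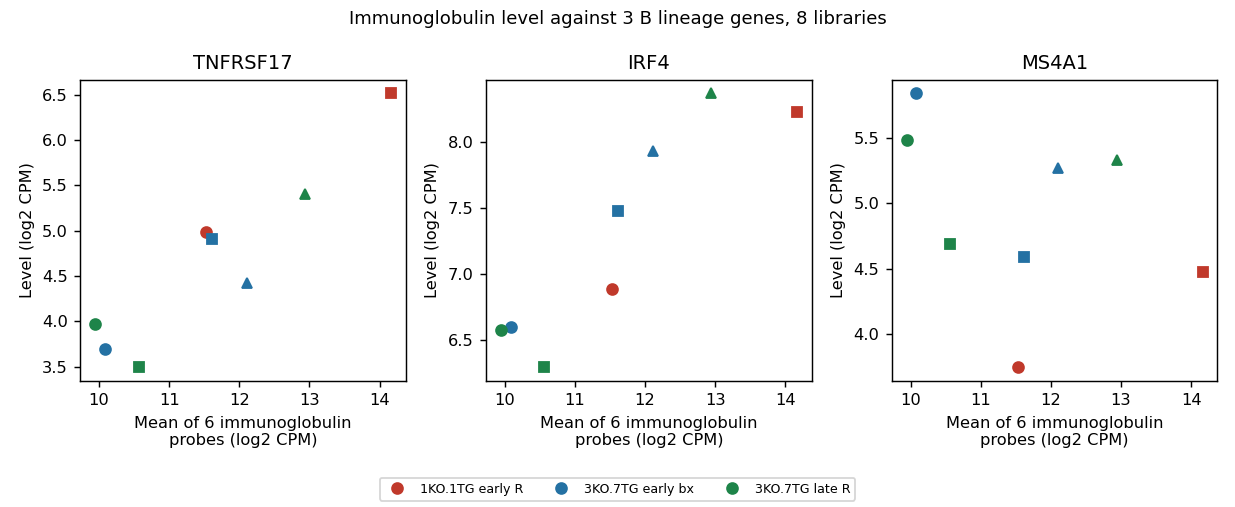
Each panel sets the mean log2 CPM of 6 immunoglobulin probes (horizontal axis) against the log2 CPM of TNFRSF17, IRF4 or MS4A1 (vertical axis) in the 8 ordinary libraries, coloured by group and shaped by replicate. TNFRSF17 and IRF4 run upward with the immunoglobulins (r = 0.93 and 0.90), whereas MS4A1 does not (r = −0.35).

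Over the 14 measured B cell genes r ranged from −0.70 to 0.65 with a median of 0.16, and 6 of 14 lay above the median of all probes. The difference between both lists was not tested. CD72, a B cell coreceptor, had r = 0.65, and CD40, the receptor for T cell help, 0.45. MS4A1, the B cell surface protein CD20, had r = −0.35, CD79A, a part of the B cell receptor, 0.29, and CD22, an inhibitory receptor of B cells, 0.26. Their counts were low, at 15 to 60 for MS4A1, 13 to 38 for CD79A and 13 to 85 for CD22 in the 8 ordinary libraries. The summed counts of the 6 measured plasma cell markers, of 8 listed, were 78 to 2244 in the 1KO.1TG grafts, 703 to 1996 in early 3KO.7TG and 623 to 2616 in late 3KO.7TG, most of them from XBP1, CD38, PRDM1 and IRF4, which other cells also express. The 78 is from the low-yield library, without which the 1KO.1TG range started at 1187. Divided by total counts, that library was instead the highest, at 3590 CPM against 776 to 1674 in the others. Only 2 of the 6 markers exceeded the highest viral probe there, against 4 to 6 in the others, so this value is partly background.

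No gene of the wider B lineage was called in any comparison over all libraries, where 0.391%, 0.0% and 0.391% of all probes were called. Of 14 measured B cell genes, 7 had fitted values above 0 in 1KO.1TG grafts against early 3KO.7TG (median log2 fold change 0.061), against 46.5% of all probes. The one farthest from 0 relative to its error was BLNK, an adaptor of B cell receptor signalling also present in other cells, at −1.71 ± 0.44 (limma adjusted p = 0.170). Of 10 plasma cell genes 7 lay above 0 (median 0.20) against 46.5% of all probes, with TNFRSF17 at 1.51 ± 0.78 (limma adjusted p = 0.438). SDC1, the plasma cell and epithelial surface protein syndecan-1, gave 21, 35 and 3 counts in the 1KO.1TG grafts and 5, 8 and 3 in early 3KO.7TG. It exceeded the highest viral probe in 4 of the 8 ordinary libraries, so no fold change is given. Against late 3KO.7TG, TNFRSF17 stood at 1.57 ± 0.72 (limma adjusted p = 0.727).

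Genes of B cell help and survival, among them CXCL13, which draws B cells, and CD40LG and ICOS, by which T cells help them, had 13 of 20 measured members above 0 in the early comparison (median 0.28, against 46.5% of all probes), and none was called.

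Receptors that bind antibody had 3 of 7 measured members above 0 between the early groups (median −0.33, against 46.5% of all probes) and 6 of 7 without the low-yield library (median 1.18, against 49.9%). FCGR2B, the inhibitory IgG receptor, stood at 2.29 ± 0.59 on the log2 scale (limma adjusted p = 0.170) and was the single one called without the low-yield library (2.76 ± 0.52, limma adjusted p = 0.032), where 1.83% of all probes were called. Between late and early 3KO.7TG all 7 lay above 0 (median 0.82, against 49.2% of all probes) and none was called. Myeloid cells carry many of these receptors. In the fit of the early groups without the low-yield library, 5 of 5 measured monocyte and macrophage markers lay above 0 (median 1.5), as did 4 of 4 neutrophil markers (median 4.03), of which S100A8 and S100A9 were called. In the same fit 7 of 9 kidney parenchyma markers lay below 0 (median −1.07). Between late and early 3KO.7TG, 5 of 5 monocyte and macrophage markers lay above 0 (median 0.71). Summed counts of the monocyte and macrophage markers were 64 to 16292 in the 1KO.1TG grafts, 2279 to 6039 in early 3KO.7TG and 3938 to 17270 in late 3KO.7TG. Those of the neutrophil markers were 46 to 50374, 176 to 348 and 1262 to 14013 in the same order. Their part in the receptor values was not tested. The classical complement genes C1QA, C1QB, C1S and C3 were not called in any comparison. Between the early groups all 4 lay below 0 over all libraries (median −1.14). Without the low-yield library 2 lay above 0 and 2 below (median −0.68), with C3 at −2.06 and C1S at −2.07. C1QA had log2 CPM of 10.77 and 10.82 in the ordinary libraries of the 1KO.1TG grafts, against 10.28, 9.98 and 10.24 in early 3KO.7TG. C1QB had 11.83 and 11.70 against 11.18, 10.51 and 10.86.

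Graft RNA is pig and infiltrating cells are macaque, so the balance of both signals is given beside the immunoglobulin share. The mean log2 ratio of macaque-marked to pig-marked probes over 4 reference genes was −0.56 in the library with the highest share and −3.62, −3.11 and −2.91 in replicates 1 and 2 of early 3KO.7TG and replicate 1 of late 3KO.7TG, with shares of 0.988%, 2.94% and 0.808%. The order did not hold throughout: replicates 2 and 3 of late 3KO.7TG had −1.45 and −1.61 but shares of 1.58% and 11.7%. When libraries were scaled on the macaque-marked probes, the median log2 fold changes of the 8 were −0.31, −0.14 and 0.36 in the comparisons as ordered above. The part of host RNA content in the immunoglobulin levels was not tested.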

How the data were processed

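The deposited table holds log2 values for 767 probes in 9 libraries; per the series' design text they come from the nCounter Human Organ Transplant Panel, and no later step by the authors is given in the sources used here. 2 to the power of each value was whole for 100% of values (relative tolerance 1e-04), so these whole numbers were used as counts; every column was used. Because the values were log2 of unscaled counts, the count form of the planned fit was used: limma 3.58.1 in R 4.3.3, with voom (offset 0.5) on library sizes times trimmed-mean factors (trims 0.3 and 0.05; 0.761 to 2.71), 3 group means over all libraries, two-sided tests, Benjamini-Hochberg over 767 probes, called at 0.05. The fit was also run on simulated data with a common spread setting for all probes. That run does not show how the fit behaves for probes as variable as most immunoglobulin probes. Exact permutation tests used scipy 1.17.1. Alternatives changed scaling, offset, background, filter, weights, samples and libraries.

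The 8 genes, the lists and the rule for named genes were chosen with earlier results of these data known. The rule took all 8, the 2 listed genes with the largest moderated t per list and comparison, and the 6 most alike probes; not all are printed, and some items are not reported here. CD22, CD79A, MS4A1, PRDM1, XBP1, CXCL13, CD40LG, ICOS and the C1Q genes were named for their roles, and CD27, CD28, CD38, CD40, CD72, S100A8 and S100A9 after their values were seen. Between libraries of equal replicate number, deviations from group means correlated at −0.45 to 0.48. The 0.48, between replicate 3 of both 3KO.7TG groups, was the highest of all pairs across groups. These values cannot decide whether equal numbers mark the same animal.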

Additional observations from a re-analysis of the deposited data

How the results depend on the processing

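None of the 8 immunoglobulin probes was called in any of the 3 comparisons under any of 23 alternative settings each, the smallest limma adjusted p being 0.189 (with the replicate number as a block, which the labels do not tie to an animal and which changed no call; the paired exact tests of shares and ratios gave p of 0.25 to 1). Few probes of any kind were called: 0.391%, 0.0% and 0.391% of all 767 in the main fit. Without the low-yield library these shares were 1.83%, 0.0% and 0.522%, and for the other settings they are not given here. The absence of calls therefore does not set the 8 apart from other probes. With the block the median log2 fold change of the 8 was −0.15, 0.14 and 0.20. Over fits that leave out libraries this median ranged from −1.41 to 1.68 for 1KO.1TG grafts against early 3KO.7TG, −0.86 to 0.78 for late against early 3KO.7TG, and −1.13 to 1.60 for the 1KO.1TG grafts against late 3KO.7TG. It was 1.67 for the first without the low-yield library, and 1.68 without it and voom weights. For scale, the pooled within-group SD of log2 CPM over the 8 ordinary libraries reached 2.04 for IGHG2.

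Of 390 values of single genes under alternatives 45 changed sign, all of them uncalled; the cause was not tested. Between the early groups, quantile scaling gave 0.93 for IGHG2, 1.08 for IGHG4, 0.90 for IGKC and 0.47 for IGLC1. Pig reference scaling gave 0.26, 0.97, 0.82 and 0.061 for the same probes. IGHG4 was 0.17 with macaque reference scaling, 0.46 after subtraction of the mean of the viral probes and 0.48 without weights; IGKC was 0.27 and 0.23 in the last 2. For late against early 3KO.7TG, IGHG2 was −0.066 with macaque reference scaling. For the 1KO.1TG grafts against late 3KO.7TG, IGHM was −0.20 on the values as deposited, IGKC −0.73 there, −0.19 with median scaling, −0.033 with an offset of 5 and −0.26 with only these 2 groups in the fit, and IGHG2 0.75 with quantile scaling.

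Without single libraries, values between the early groups ranged from −2.95 to 1.91 for IGHG2 (1.92 also without voom weights), −1.15 to 2.18 for IGHG4 (2.17 also without weights), −1.68 to 1.87 for IGKC and −3.13 to 1.48 for IGLC1. For late against early 3KO.7TG, IGHA1 ranged from −0.11 to 1.70 and IGHG2 from −1.01 to 1.09. For the 1KO.1TG grafts against late 3KO.7TG, IGHG2 ranged from −3.16 to 1.68 and IGKC from −1.17 to 2.34. Without the low-yield library and with macaque reference scaling, chosen after seeing the data, IGHG2, IGHG4, IGKC and IGLC1 were 1.36, 1.63, 1.31 and 0.92 between the early groups. IGHG2 was −0.067 and 1.43 in the other comparisons.

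Of 108 alternative values of the share and ratios 11 changed sign. Without single libraries the log2 share difference ranged from −0.43 to 1.60, −1.10 to 0.82 and −0.45 to 1.76 in the comparisons as ordered above. The IGHM to IGHG ratio ranged from −0.35 to 3.78, −0.15 to 0.98 and −0.71 to 3.41, and the kappa to lambda ratio of late against early 3KO.7TG from −1.08 to 0.33. IGHA1 to IGHG ranged from −0.23 to 3.40 for the 1KO.1TG grafts against late 3KO.7TG. Low counts limit IGHG1 and all immunoglobulin probes but IGHM in the low-yield library.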
